A study of Mus musculus with 19 samples.

Results

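The genes described here mark the alveolar type 1 cell, and they were measured in whole lung of adult male MutaMouse given a mixture of polycyclic aromatic hydrocarbons (PAHs). They are Ager, Aqp5, Hopx, Pdpn, Cav1, Rtkn2, Igfbp2, Akap5 and Clic5, chosen by name as known type 1 cell genes, with every array probe whose RefSeq accession belongs to one of them. Of the 9 genes, 8 had a matched probe, and 12 probes in all were among the 30994 tested out of 55681 on the array. No probe matched Rtkn2 by accession, and it was not analysed here. MutaMouse is a transgenic mouse that carries a bacterial reporter for mutations, so every group shared that transgene and the strain background. Mice about 12 weeks old received olive oil alone (D0, 5 mice) or a mixture of 8 PAHs in olive oil, by gavage every day for 28 days. The mixture was dosed at 15 (D1, 4 mice), 30 (D2, 5 mice) or 60 (D3, 4 mice) mg of benzo[a]pyrene (BaP) equivalents per kg body weight per day. Lungs were taken 72 h after the last dose. Lung RNA in the red dye and a mouse reference RNA pooled from 11 cell lines in the green dye were hybridised together, and each value below is a log2 ratio of lung over reference.

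Type 1 cells are the thin, very wide epithelial cells that cover most of the alveolar surface and form the barrier across which gas is exchanged. They arise from alveolar type 2 cells, the cuboidal cells that make surfactant and act as progenitors after injury. Ager encodes the receptor for advanced glycation end products, a membrane receptor present at high level in these cells. Aqp5 is a water channel and Pdpn (podoplanin) a surface glycoprotein of the apical membrane, while Cav1 (caveolin 1) builds caveolae, the small membrane pits that are also abundant in endothelial cells. Clic5 belongs to the chloride intracellular channel family and Akap5 is an anchoring protein for protein kinase A. Hopx is a homeodomain cofactor without DNA binding of its own, and Igfbp2 is a secreted protein that binds insulin-like growth factors and marks mature type 1 cells.

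Cav1 fell and Igfbp2 rose at the highest dose, and none of the other 6 measured genes passed the test at any dose. Cav1 was 1.56-fold lower at D3 than at D0 and Igfbp2 was 1.92-fold higher. At D1 and D2, 0 of the 8 genes met both criteria of the test, which were an adjusted p (limma, Benjamini-Hochberg over every tested probe) not above 0.05 and a difference of 1.5-fold or more. Of all tested probes, 1.06% met both at D1, 0.626% at D2 and 2.43% at D3, where 1.21% were higher and 1.23% lower. The 2 of 8 genes at D3 therefore split into 1 in each direction. Without the fold criterion, 0 genes passed at D1, 1 (Cav1) at D2 and 2 at D3, against 4.74%, 2.09% and 12.4% of all probes. At an unadjusted p under 0.05, Ager, Cav1 and Akap5 stood below D0 at D1 (3 of 8 genes, against 19.8% of all probes), and Cav1 and Igfbp2 differed at D2 (2 of 8, against 14.8%). At D3 these were Ager, Pdpn, Cav1 and Igfbp2 (4 of 8, against 26.2%). Whole-lung RNA was measured, so fewer type 1 cells and less of a transcript in each cell cannot be told apart.

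Both genes are shown with the 250 bases that RefSeq (GRCm38.p6) places before their first listed start site, because PAHs bind the aryl hydrocarbon receptor and the core of the element this receptor recognises, GCGTG, can be read directly in them. Capitals mark GCGTG or its reverse complement CACGC, both strands having been searched.
Cav1, chr6:17306085-17306334, plus strand: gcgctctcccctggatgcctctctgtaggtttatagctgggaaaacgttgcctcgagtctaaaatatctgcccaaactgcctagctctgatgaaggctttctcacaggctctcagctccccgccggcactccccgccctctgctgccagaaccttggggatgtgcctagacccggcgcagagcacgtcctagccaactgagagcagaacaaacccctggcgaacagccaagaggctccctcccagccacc
Igfbp2, chr1:72824230-72824479, plus strand: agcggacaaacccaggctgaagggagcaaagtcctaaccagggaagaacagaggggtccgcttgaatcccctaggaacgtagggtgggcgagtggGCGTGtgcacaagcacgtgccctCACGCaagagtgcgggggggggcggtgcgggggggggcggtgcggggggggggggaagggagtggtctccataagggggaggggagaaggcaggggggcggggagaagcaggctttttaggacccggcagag
The Cav1 stretch held 0 copies and the Igfbp2 stretch held 2, one on each strand. In 300-base windows from 250 bases before to 50 after each start site, 11 windows matched 8 of the 9 genes. The core was present in 5 windows of 4 genes (Aqp5, Hopx, Igfbp2 and Akap5), and absent from both windows of Cav1 and from those of Ager, Pdpn and Clic5. Among all 32851 windows of the table, 32.4% held it. A match of these letters is a description of the sequence and not a binding site.

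Cav1 was measured by 1 probe, for RefSeq transcript NM_001243064. The 5 vehicle mice had log2 ratios of 2.33, 2.16, 2.70, 2.48 and 2.48. The 4 D1 mice had 2.09, 1.91, 2.11 and 1.94. The 5 D2 mice had 2.09, 1.90, 1.56, 2.16 and 1.77, and the 4 D3 mice had 1.56, 1.93, 1.81 and 1.86. Every exposed mouse lay below the vehicle mean, and no D1 or D3 mouse reached the lowest vehicle mouse, while the D2 mice overlapped the vehicle mice at their upper end. The log2 fold change against D0 was -0.42 ± 0.12 (SE) at D1 (adjusted p = 0.054, limma), -0.53 ± 0.11 at D2 (adjusted p = 0.0171) and -0.64 ± 0.12 at D3 (adjusted p = 0.00209). The 95% interval at D3 ran from 1.31-fold to 1.85-fold lower. D3 was not separated from D1, with a log2 difference of -0.22 ± 0.13 (adjusted p = 0.744).

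The size of the Cav1 change lay close to the fold criterion, and single mice or the way arrays were normalised decided the call. With arrays centred on their medians in place of loess, the D3 difference was -0.43 on the log2 scale and not called. Without vehicle mouse 3 the D3 difference was 1.48-fold, and without D3 mouse 31 it was 1.48-fold, under the criterion of 1.5-fold although both stayed past the adjusted p (0.00707 and 0.0103). Without vehicle mouse 2 or without D2 mouse 29 the D2 difference of Cav1 became 1.52-fold and 1.51-fold and was called. Within the 3 slides the D3 difference of Cav1 was -0.50, -0.82 and -0.48 on the log2 scale, lower on each. Mouse 35 gave 1 of the 2 D3 arrays on slide 2 and the only one on slide 3.

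Igfbp2 was measured by 2 probes of NM_008342, which moved together across mice (Pearson r of the deviations from the group means 0.983, 18 mice). On the brighter probe the vehicle mice had 2.79, 2.37, 2.17, 2.03 and 2.40, and the D1 mice 2.75, 2.08, 2.32 and 3.18. The D2 mice had 2.45, 2.48, 3.30, 3.41 and 2.68, and the D3 mice 3.03, 3.08, 3.11 and 3.96. All D3 mice stood above all vehicle mice, and the D1 and D2 mice spread from the vehicle range up into the D3 range. The log2 fold change was 0.23 ± 0.25 at D1 (adjusted p = 0.659), 0.51 ± 0.23 at D2 (adjusted p = 0.307) and 0.94 ± 0.25 at D3 (adjusted p = 0.0168, limma). The interval at D3 ran from 1.34-fold to 2.75-fold higher. The second probe gave 0.24, 0.51 and 0.91, and at D3 it was also called (adjusted p = 0.0107).

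Mouse 35 held the highest Igfbp2 value of all, and the call rested on it. Without it the D3 difference of Igfbp2 was 0.72 on the log2 scale with an adjusted p of 0.0763. With all mice kept but arrays centred on their medians in place of loess, the D3 difference of Igfbp2 was 1.096 and not called. Mouse 35 was hybridised on 2 arrays, which gave 4.01 and 3.90 for Igfbp2. Within the slides the D3 difference of Igfbp2 was 0.47, 1.46 and 1.51, and mouse 35 gave 1 of the 2 D3 arrays on slide 2 and the only one on slide 3.

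The mean level of 5 mesothelial markers varied with Igfbp2 between mice of some groups. The 5 vehicle mice stood in the same order on both, from mouse 1 (1.03 above the vehicle mean of the markers, Igfbp2 2.79) to mouse 4 (-1.46, Igfbp2 2.03). At D2 mouse 29 was highest and mouse 23 lowest on both, and at D3 mouse 35 was highest on both, at 0.80 for the markers. The other D3 mice did not follow the markers. Mouse 34 was lowest for the markers, at -0.43, but stood above mice 31 and 32 for Igfbp2, at 3.11. At D1 the orders differed too, with mouse 22 highest for the markers and lowest for Igfbp2. No mesothelial marker was called by limma at any dose (0 of 5 had an unadjusted p under 0.05), and the part of these cells in the Igfbp2 difference was not tested.

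**Figure D1:**
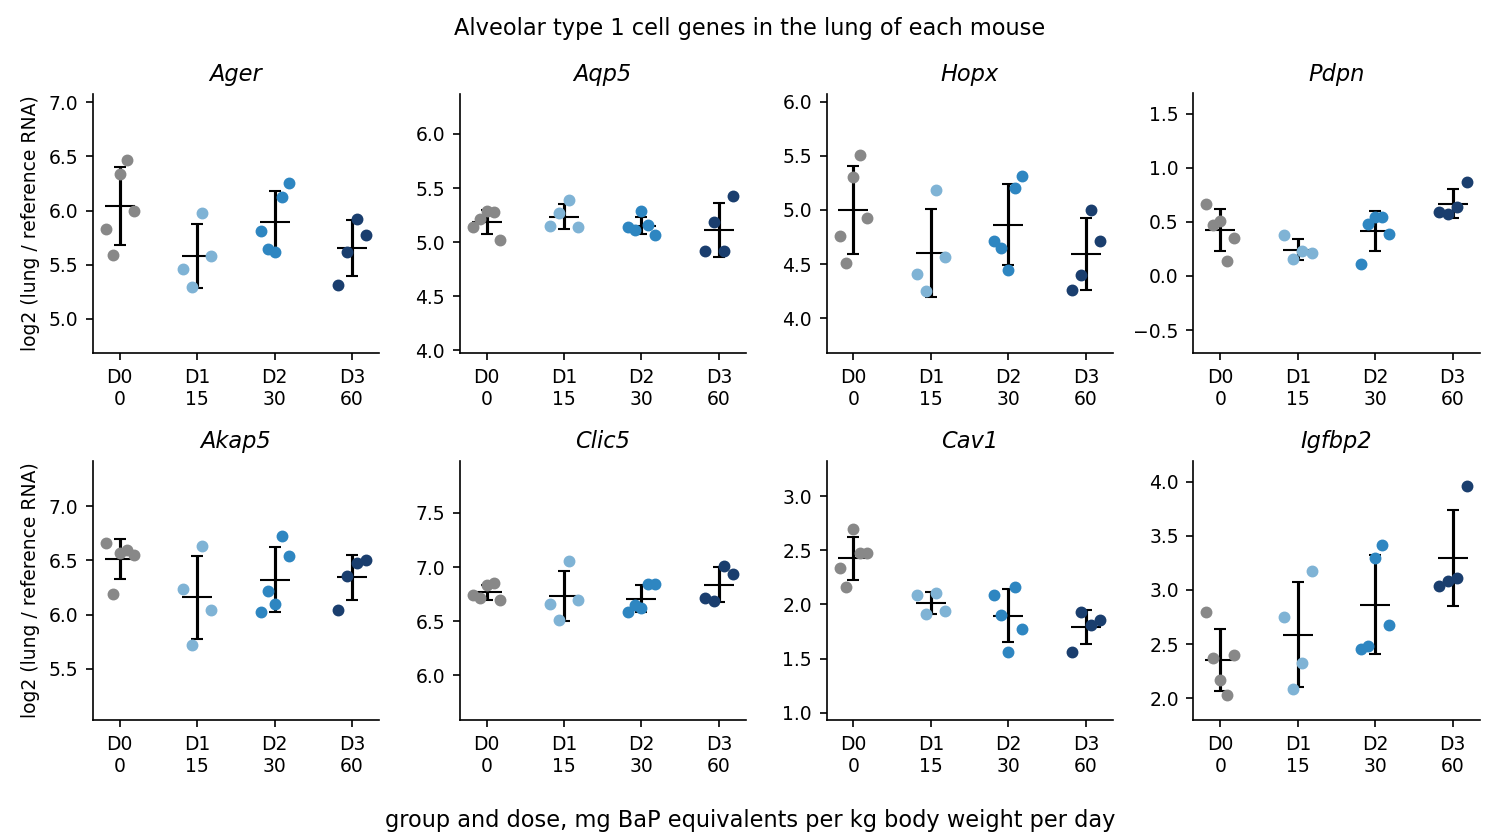
Log2 ratio of lung over reference RNA (vertical axis, every panel spanning the same number of log2 units) for the 8 measured type 1 cell genes by group and dose. Each point is a mouse, the horizontal mark is the group mean and the bar its SD. Cav1 steps down from D0 and Igfbp2 climbs to D3, where no mouse overlaps the vehicle mice for either gene. Cav1 at D2 and Igfbp2 at D1 and D2 do overlap them. For the other genes all exposed groups overlap the vehicle mice.

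Of the 8 genes, 1 was called for a linear relation with dose, Igfbp2, with a fitted log2 change of 0.95 ± 0.24 from 0 to 60 (adjusted p = 0.0200), where 1.46% of all probes were called. For Cav1 the fitted change was -0.57 ± 0.12 (adjusted p = 0.00574), just short of 1.5-fold. Between exposed groups none of the 8 genes was called by limma. All probes gave 0% called for D2 against D1 (9.82% at an unadjusted p under 0.05, none of them one of the 8 genes), 0.106% for D3 against D2 and 0.145% for D3 against D1. At an unadjusted p under 0.05 only Pdpn of the 8 differed between D3 and D2 (against 11.7% of all probes), and only Pdpn and Igfbp2 between D3 and D1 (against 7.68%).

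Ager and Hopx, the receptor and the cofactor, lay lower at D1 and D3 without passing the test. For Ager the vehicle mice had 5.83, 5.59, 6.34, 6.47 and 5.99. The D1 mice had 5.46, 5.29, 5.98 and 5.58, the D2 mice 5.82, 5.65, 5.62, 6.12 and 6.25, and the D3 mice 5.31, 5.61, 5.92 and 5.77. All 4 D1 and all 4 D3 mice lay below the vehicle mean, but the groups overlapped. The log2 fold change of Ager was -0.47 (95% interval -0.85 to -0.08, adjusted p = 0.157) at D1, -0.15 at D2 and -0.39 (-0.77 to -0.0016, adjusted p = 0.189) at D3. For Hopx it was -0.40 at D1, -0.14 at D2 and -0.41 at D3 (adjusted p = 0.345, 0.840 and 0.270), and its second probe gave -0.34, -0.27 and -0.36.

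The spread of these genes followed the slide on which a mouse was hybridised. Each of the 3 slides, with 8, 7 and 4 arrays, held all 4 groups. Averaged over arrays, Ager stood 0.25 below its group means on the first slide, 0.33 above on the second and 0.07 below on the third. Hopx stood 0.31 below, 0.42 above and 0.12 below, and Akap5 0.15 below, 0.26 above and 0.15 below. The range of these slide means was 0.58 for Ager, 0.73 for Hopx and 0.41 for Akap5, larger than in 98.6%, 99.4% and 94.9% of tested probes, whose median range was 0.16. It was 0.26 for Clic5, 0.25 for Igfbp2, 0.19 for Cav1, 0.11 for Pdpn and 0.10 for Aqp5. The arrays of mouse 35, on slides 2 and 3, differed by 0.52 for Ager, 0.61 for Hopx and 0.66 for Akap5, with the array on slide 2 higher each time. Those gaps between arrays of one mouse are as large as or larger than the dose differences of the same genes.

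Compared within each slide, both genes lay below the vehicle level at all 3 doses. The differences of Ager at D1 were -0.33, -0.42 and -0.42 on the 3 slides, at D2 -0.07, -0.22 and -0.18, and at D3 -0.24, -0.42 and -0.48. Those of Hopx were -0.30, -0.22 and -0.36 at D1, -0.09, -0.15 and -0.20 at D2, and -0.30, -0.40 and -0.51 at D3. Each difference on slide 3 set 1 array against 1 array. The D3 array there came from mouse 35, which also gave 1 of the 2 D3 arrays on slide 2. With slide as a block in the same model, Ager passed the adjusted p at D1 (-0.39, adjusted p = 0.00617) and D3 (-0.34, adjusted p = 0.00644), as did Hopx at D1 (-0.30, adjusted p = 0.0217) and D3 (-0.36, adjusted p = 0.00365). In that model 8.26% of all probes passed the adjusted p at D1 and 17.7% at D3. All 4 of these differences were under 1.5-fold, so the called genes at D3 stayed Cav1 and Igfbp2. Cav1 passed the adjusted p at D1 as well (-0.40, adjusted p = 0.0373). The blocked model used only the first array of mouse 35.

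**Figure D2:**
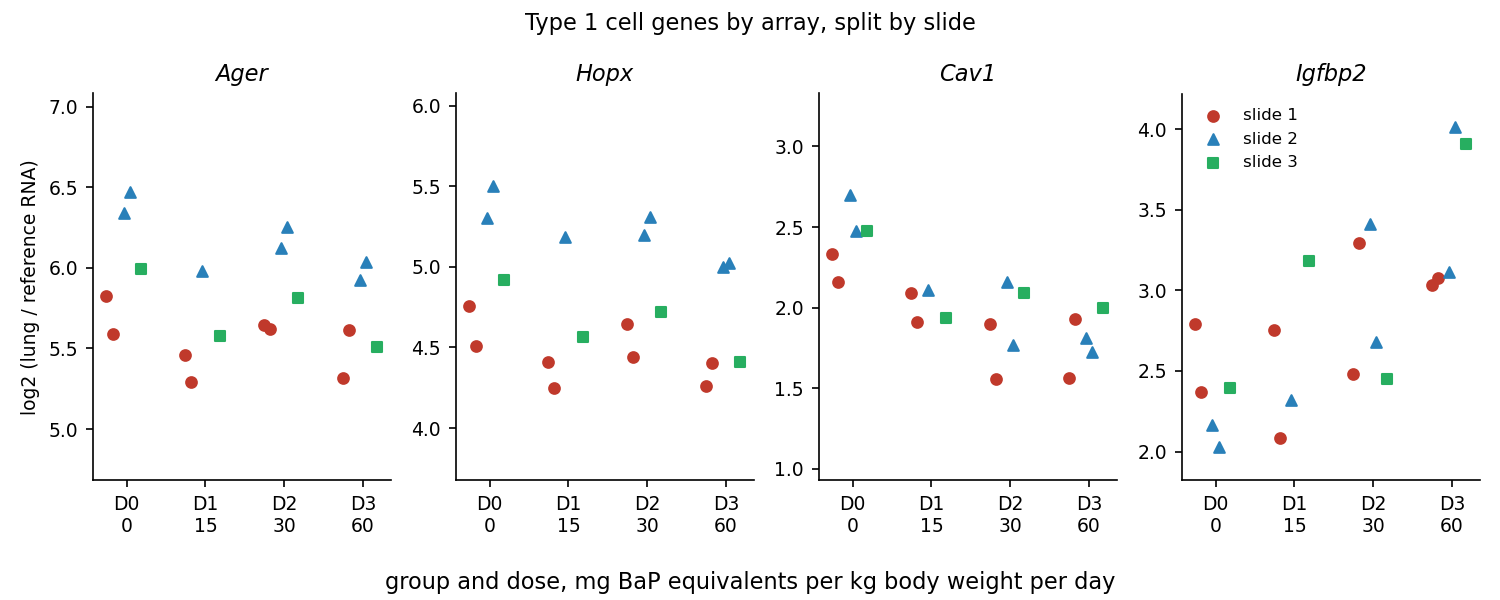
Log2 ratio of lung over reference RNA for Ager, Hopx, Cav1 and Igfbp2 in each of the 19 arrays, by group and dose, with the 3 slides as separate symbols and the 2 arrays of mouse 35 plotted apart in D3. Ager and Hopx form layers by slide, highest on the second, and step down from D0 to D1 and D3 inside each layer. The layers are less distinct for Cav1 and Igfbp2.

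Averaged over the 8 genes, the slide means were 0.12 below, 0.16 above and 0.03 below. Other lists differed between slides too, in either direction. The 17 other type 1 cell genes averaged 0.10 below, 0.11 above and 0.01 above their group means on the 3 slides, the 11 type 2 cell markers 0.15 below, 0.17 above and 0.01 above, and the 12 endothelial markers 0.14 below, 0.19 above and 0.07 below. The reverse held on slides 1 and 2 for the 7 cardiac markers (0.38 above and 0.33 below) and the 5 mesothelial markers (0.22 above and 0.35 below). What the slides share beyond the glass was not tested. Dose also set the position of an array within its slide, by column, and the effects of position and dose cannot be told apart.

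Ager and Hopx also varied with each other. The Pearson correlation of their deviations from the group means was 0.982 over the 18 mice, and 0.873 after the slide means were removed too. Over the 28 pairs of the 8 genes this correlation ran from -0.18 to 0.98, with Hopx and Clic5 at 0.877, Akap5 and Clic5 at 0.839 and Ager and Clic5 at 0.811. Without the slide means those 3 pairs gave 0.41, 0.637 and 0.124. Pdpn and Igfbp2 formed a pair of their own, at 0.671, and 0.810 without the slide means. Cav1 and Igfbp2, the genes that changed, gave -0.09. The points of these correlations share arrays and slides.

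The channel, anchoring and surface genes gave small differences. For Aqp5, lowest to highest, the vehicle mice ran from 5.02 to 5.29 and the D3 mice from 4.92 to 5.43, and the log2 fold change was 0.05, -0.04 and -0.08 at the 3 doses, with an interval of -0.28 to 0.13 at D3. For Clic5 the vehicle mice ran from 6.70 to 6.85 and the D3 mice from 6.69 to 7.01, and the change was -0.04, -0.06 and 0.07, with an interval of -0.14 to 0.28 at D3. These intervals exclude a change of 1.5-fold in either direction at D3. For Akap5 the change was -0.36, -0.19 and -0.17 (adjusted p = 0.245, 0.631 and 0.568), and a lone vehicle mouse at 6.19 lay apart from the others at 6.55 to 6.66. Its D1 mice had the widest spread, from 5.72 to 6.64.

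Pdpn was the member nearest the reference level, with vehicle mice from 0.14 to 0.67. Its D1 mice ran from 0.16 to 0.38, its D2 mice from 0.11 to 0.55 and its D3 mice from 0.57 to 0.86. All D3 mice lay above all D1 and D2 mice, and all lay above the vehicle mean while overlapping the vehicle mice. The log2 fold change of Pdpn was -0.18 at D1 and 0.24 (0.02 to 0.46, adjusted p = 0.157) at D3, and 0.42 ± 0.11 between D3 and D1 (adjusted p = 0.194, limma). The second, dimmer probe of Pdpn gave -0.03 at D1 and 0.10 at D3 and correlated with the first at only 0.324 within groups, so the probes of this gene disagree. The probe pairs of Hopx and Aqp5 gave 0.941 and 0.750.

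**Figure D3:**
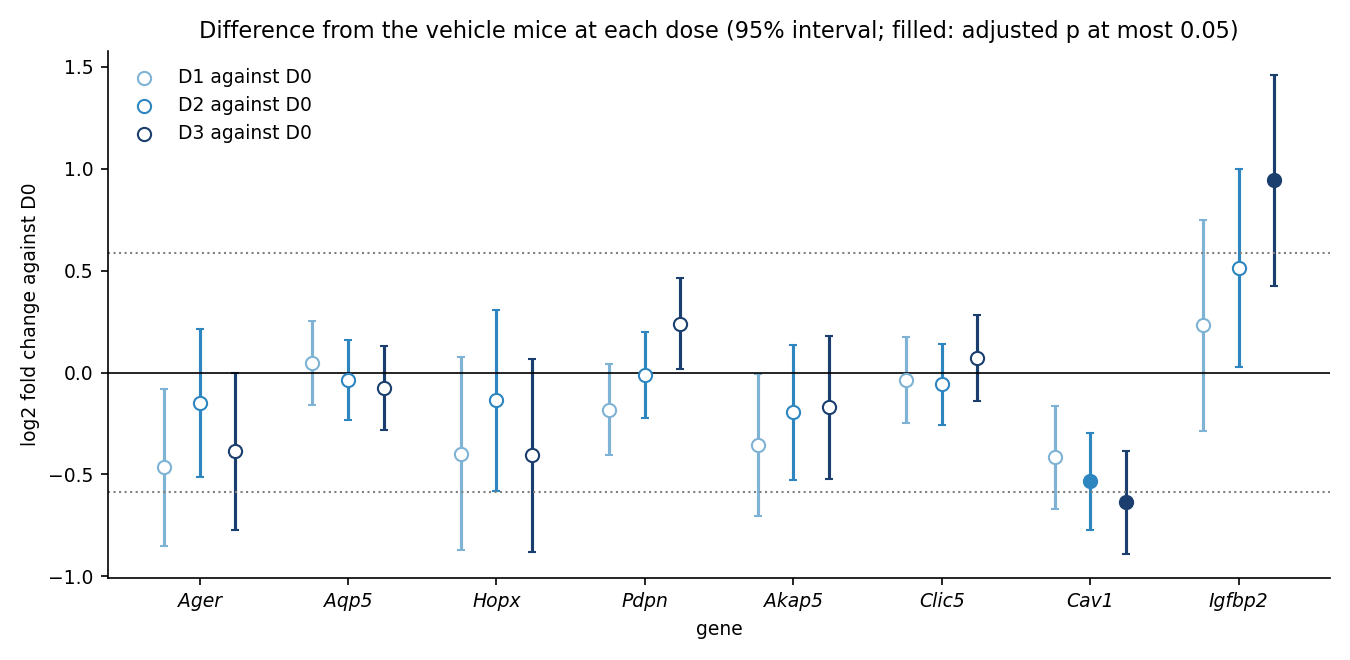
Log2 fold change of each measured type 1 cell gene against the vehicle mice at D1, D2 and D3, with 95% intervals from limma. Filled points passed the adjusted p of 0.05, and dotted lines mark 1.5-fold. The filled points are Cav1 at D2 and D3 and Igfbp2 at D3.

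Within groups, the genes differed in how much mice varied. The residual SD on the log2 scale was 0.42 for Igfbp2, 0.38 for Hopx, 0.31 for Ager and 0.28 for Akap5, larger than in 97.7%, 96.8%, 93.7% and 91.4% of tested probes. It was 0.19 for Cav1, 0.16 for Pdpn and 0.15 for both Aqp5 and Clic5, around the median of 0.15 over all tested probes. The median log2 fold change of the 8 genes was -0.27 at D1, -0.10 at D2 and -0.12 at D3, beside 0.01, 0.00 and 0.00 for all tested probes. Under median centring it was 0.08, 0.15 and 0.07, beside 0.17, 0.12 and 0.06 for all tested probes. In the red channel alone it was -0.094, -0.07 and -0.01. At D3 it was -0.041 without mouse 31, -0.20 without mouse 35, -0.23 with processed signals, -0.063 with the first array of mouse 35 alone and -0.076 with both its arrays apart. At D2 it was -0.17 without vehicle mouse 2, -0.050 without vehicle mouse 3 and -0.040 without vehicle mouse 4. Without D2 mouse 26, 28, 29 or 30 it was -0.063, -0.057, -0.15 and -0.17. All 8 genes were measured well above background in 18 of 18 mice in both channels.

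The rest of the type 1 cell programme gave no call. Of 17 other tested genes of these cells, 0 were called at any dose by limma (5 had an unadjusted p under 0.05 at D3, against 26.2% of all probes), and 1, Lmo7, passed the adjusted p at D3 (-0.30, adjusted p = 0.0220). At D3, 6 lay above zero and 11 below, with a median of -0.12. Vegfa, the endothelial growth factor that type 1 cells secrete, gave -0.37 (adjusted p = 0.118), Emp2, a membrane protein of these cells, -0.28 (adjusted p = 0.122), Gprc5a -0.24 (adjusted p = 0.119) and the basement membrane proteoglycan Agrn 0.24 (adjusted p = 0.155).

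No other caveola gene was called by limma at any dose. Of 8 tested, 2 had an unadjusted p under 0.05 at D3 (against 26.2% of all probes), 7 lay above zero at D3 and the median was 0.20. Cav2, the partner that caveolin 1 carries to the membrane, gave 0.08 (adjusted p = 0.564) and Cavin1, the coat protein that caveolae require, -0.07 (adjusted p = 0.739). Cavin2 passed the adjusted p, higher at 0.28 (adjusted p = 0.0435), and Ehd2, an ATPase at the caveola neck, gave 0.29 (adjusted p = 0.0993).

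Cav1 is also a gene of the endothelium, and some markers of lung capillaries were lower at D3 too. Of 10 capillary markers tested, 3 were called lower at D3 (against 1.23% of all probes) and 9 lay below zero, with a median of -0.31. Those called were Gpihbp1, which holds lipoprotein lipase on the capillary wall (-2.45, adjusted p = 2.1e-06), the endothelin receptor Ednrb (-0.90, adjusted p = 0.00297) and Fibin (-0.77, adjusted p = 0.00541). Car4 (-0.29, adjusted p = 0.253) and Plvap (-0.16, adjusted p = 0.568) did not pass, and Kit gave 0.024. Fibin was also called lower at D1 (-0.68, adjusted p = 0.0261) and Gpihbp1 at D2 (-0.99, adjusted p = 0.0220), calls that were lost in 6 and 7 of 30 alternatives. The mean deviation of the 10 genes from their vehicle means ran from -0.15 to 0.05 in the vehicle mice, while the D1 mice spanned -0.37 to 0.11, the D2 mice -0.42 to -0.09 and the D3 mice -0.66 to -0.45. That mean includes the 3 genes called at D3, so it is not separate from their calls. Of 12 general endothelial markers, 2 were called at D3 and both were higher (against 1.21% of all probes called higher). They were Pecam1 (0.66, adjusted p = 0.00673) and Emcn (0.73, adjusted p = 0.00890). Cdh5 gave 0.27 (adjusted p = 0.250) and the median was 0.10. At D1 the called general endothelial markers were Pecam1 (0.67, adjusted p = 0.0136) and Tmem100 (0.77, adjusted p = 0.0453), but the Tmem100 call was lost in 19 of 30 alternatives, and that of Pecam1 in 3. The D3 calls of Pecam1, Emcn and Ednrb were lost with processed signals and under median centring, and that of Fibin under median centring. The mean deviation of these 12, the called genes included, ran from -0.22 to 0.16 in the vehicle mice and from -0.02 to 0.30 at D3. No gene of either list was at or near background in any group, and the part of these cells in the Cav1 difference was not tested.

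The genes whose pattern over the 18 mice was most like Cav1, out of 14730 ranked, were Grrp1 (r = 0.909), Car14 (r = 0.897) and AI504432 (r = 0.879). Their D3 log2 fold changes were -0.93, -2.15 and -0.73. Among those most like Igfbp2 were Rasgrp3 (r = 0.876) and Slc6a14 (r = 0.870), with D3 changes of 0.73 and 0.41. These coefficients include the difference between doses and describe likeness only.

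YAP and TAZ, the Hippo pathway coactivators, are known to govern the type 1 cell state. Wwtr1, which encodes TAZ, passed the adjusted p at D1 (0.35, adjusted p = 0.0460) and D3 (0.36, adjusted p = 0.0213), and Yap1 did not (-0.12 at D3, adjusted p = 0.538). Of the 9 genes of this list, 1 was called at D3, the target Ccn1 (0.65, adjusted p = 0.0157), and 3 passed the adjusted p with the kinase Lats2 (0.31, adjusted p = 0.0211). Over all probes 2.43% were called at D3 and 12.4% passed the adjusted p. Ccn2, another target, gave 0.18 (adjusted p = 0.528), and Tead1, a DNA-binding partner of both coactivators, -0.40 (adjusted p = 0.129). At D3, 6 of the 9 lay above zero and 3 below, with a median of 0.18. The Ccn1 call was lost under median centring, in the red channel alone and without vehicle mouse 5 or D3 mouse 35.

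Among the ligands of the Ager receptor, a pair was called at the highest dose. S100a8 and S100a9, which pair as calprotectin and are abundant in neutrophils, were called higher at D3, by 1.77 (adjusted p = 0.00178) and 0.86 (adjusted p = 0.0286) on the log2 scale. They were 2 of 5 ligands tested, against 1.21% of all probes called higher. S100a8 was already higher by 1.05 at D1 and 0.98 at D2. It was not called there, but was in 3 and 1 of 30 alternatives. Hmgb1 gave -0.16 (adjusted p = 0.304), S100a4 0.30 (adjusted p = 0.105) and S100b 0.25 (adjusted p = 0.281). The S100a9 call was lost with processed signals, under median centring, without vehicle mouse 1, 2 or 5 and without D3 mouse 32 or 34.

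No type 2 cell marker was called by limma at any dose. Of 11 tested, 3 had an unadjusted p under 0.05 at D3 (against 26.2% of all probes), 10 lay below zero at D3 and the median was -0.32. The lipid transporter Abca3 passed the adjusted p (-0.48, adjusted p = 0.0112), and the surfactant protein genes Sftpc and Sftpb gave -0.32 (adjusted p = 0.420) and -0.38 (adjusted p = 0.307). Of 11 markers of cells in transition from type 2 to type 1, the only one called was Cdkn1a, the p53-induced inhibitor of the cell cycle, at 1.95 (adjusted p = 6.24e-07), 1.96 (adjusted p = 2.09e-07) and 3.12 (adjusted p = 1.49e-10) at the 3 doses. Of all probes 1.06%, 0.626% and 2.43% were called at those doses. Of the keratins of that state, Krt18 was lower at D3 past the adjusted p (-0.34, adjusted p = 0.0158) and Krt8 gave -0.19 (adjusted p = 0.377). Krt15, of the basal cells, was called higher (0.89, adjusted p = 0.0251), while the other 3 basal markers lay below zero and Trp63 passed the adjusted p (-0.38, adjusted p = 0.00964). The Krt15 call was lost under median centring and without vehicle mouse 3 or D3 mouse 32 or 35.

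Of the remaining cell types, the club, ciliated, mesothelial, smooth muscle, cardiac, B cell and macrophage lists held 0 called genes at D3 by limma (6 of their 39 genes had an unadjusted p under 0.05, against 26.2% of all probes), with medians from -0.55 for the 6 club and secretory cell markers to 0.16 for the 5 mesothelial markers. Those mesothelial markers spread widely between mice, with a mean deviation from -1.46 to 1.03 in the vehicle mice. The 7 cardiac markers ran from -0.60 to 0.21 in the vehicle mice, and D1 mouse 24, D2 mouse 28 and D3 mouse 35 lay apart at -2.77, -2.90 and -2.76. The lymphatic marker Lyve1 was called higher (1.31, adjusted p = 0.000623), the fibroblast gene Dcn lower (-0.82, adjusted p = 0.0209), and Gzma (-3.07, adjusted p = 0.000159) and Prf1 (-0.66, adjusted p = 0.00134) of the cytotoxic lymphocytes lower. These were 1 of 3 lymphatic, 1 of 7 fibroblast and 2 of 7 NK and T cell markers tested, and the T cell gene Cd3g gave 0.44 (adjusted p = 0.072). The Dcn call was lost under median centring, in the red channel alone and without D3 mouse 31 or 32, that of Prf1 under median centring and without vehicle mouse 3, and that of Lyve1 under median centring. The part of any of these cells in the values of the type 1 cell genes was not tested.

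**Figure D4:**
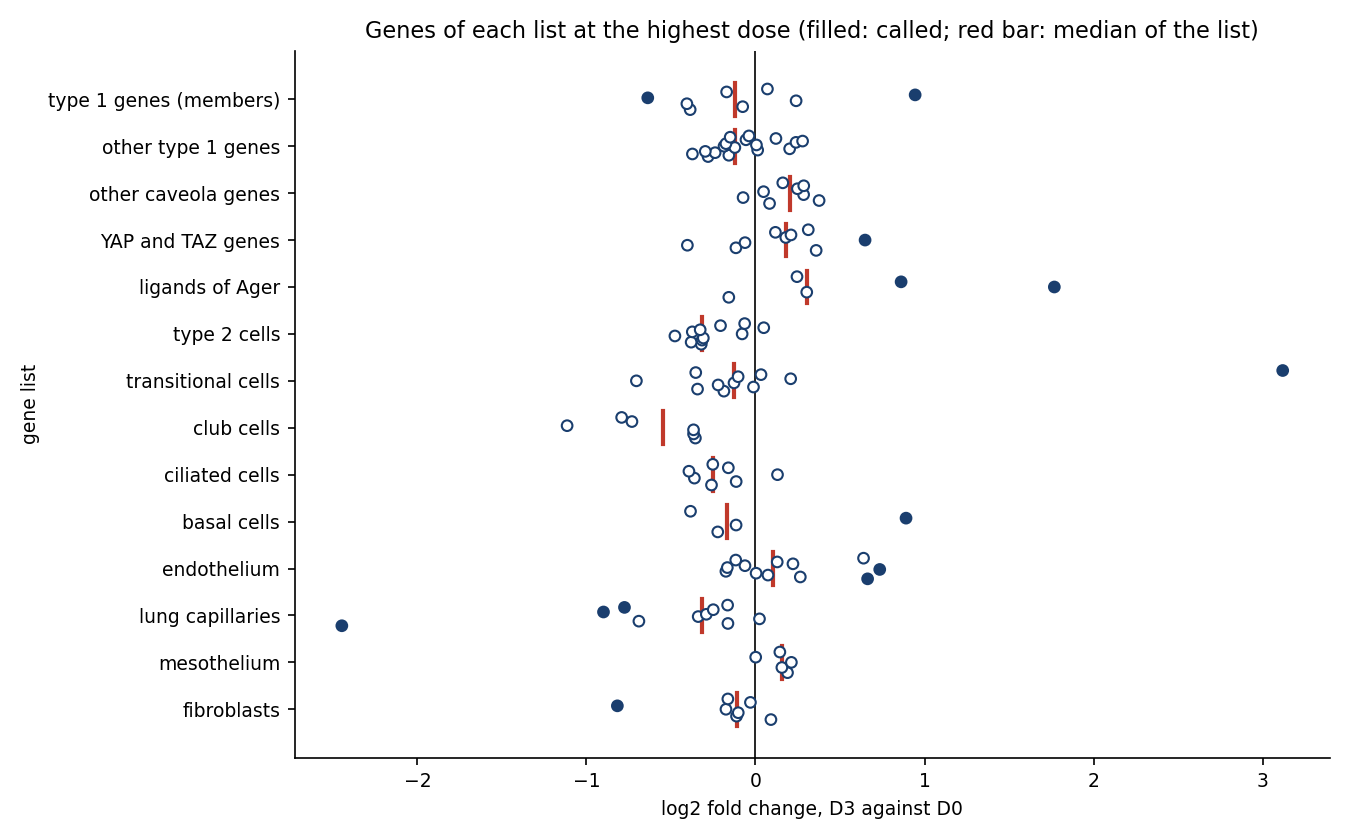
Log2 fold change at D3 against D0 (horizontal axis) of each tested gene in 14 of the gene lists, filled where called. The red bar is the median of the list. The type 1 cell genes lie around a median of -0.12 with Cav1 and Igfbp2 filled at the ends, while Gpihbp1 of the capillaries and Cdkn1a of the transitional cells lie farthest out.

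The arrays held 62976 spots each, 171 to 323 of them marked as outliers, and none was saturated. Mouse 23 is labelled D2, while the number of mice per group in the methods would place it in D1, so it was kept as labelled and also tried in D1. The D3 values of the members do not depend on that choice beyond the shared spread, and Cav1 was called at D3 either way. The call for Cav1 at D3 was kept in 27 of 30 alternatives and that for Igfbp2 in 28 of 30, and the direction in all 30 for both.

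**Figure D5:**
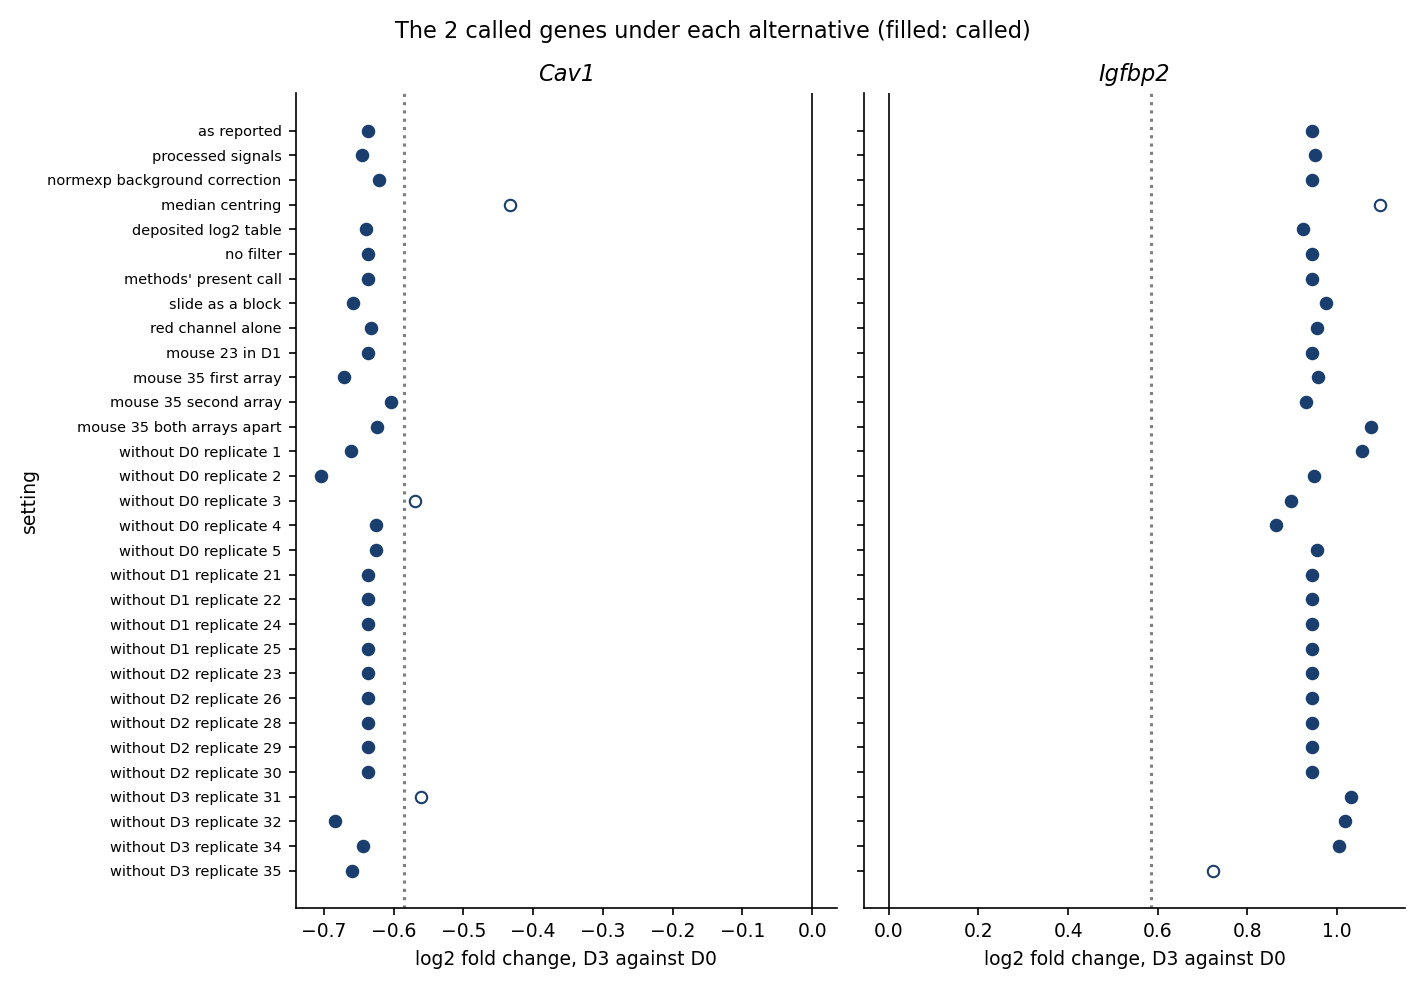
Log2 fold change at D3 against D0 of Cav1 (left) and Igfbp2 (right) as reported and under each of 30 alternatives, filled where called. The dotted line is 1.5-fold and the solid line is no change. Cav1 is open under median centring and without D0 mouse 3 or D3 mouse 31, and Igfbp2 under median centring and without D3 mouse 35.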

How the data were processed

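Per the file headers and the study's methods, the authors hybridised lung RNA (red) with a mouse reference RNA (green) on 2-colour Agilent arrays without a dye swap and deposited scanner output, whose spot intensity values are linear and not background-subtracted in the median columns used here, and a series table of log2 ratios, used as an alternative only. Feature Extraction 11.0.1.1 is named in the headers. Here the median red and green intensities were normalised by loess (span 0.3) within each array, with control spots at weight 0 and spots marked as outliers left out. Spots of a probe and the 2 arrays of mouse 35 were averaged, giving 18 mice from 19 arrays. Tested probes were those with lung signal well above background in at least 4 mice of 1 group. Gene names came from RefSeq (GRCm38.p6) through the accessions of the array, 21465 of 22765 of which matched. A gene was represented by its brightest probe.

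One model over the 4 groups was fitted in limma 3.58.1 (R 4.3.3) with Benjamini-Hochberg adjustment over 30994 probes. The study's own permutation method was not used. The number of mice limits the precision, and depth does not apply to arrays. Nothing in the labels says more of how mice were housed or processed, so p-values measure the spread between these mice. Genes named are all members, the genes of the lists called at any dose and up to 4 more per list. One gene that this rule also selected is not reported here. The members and lists were chosen with earlier results of these data known. The fit was tested on simulated data. Alternatives were background correction, centring, the deposited table, filters, red channel alone, slide as a block, mouse 23 in D1, the arrays of mouse 35 and leaving out each mouse.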

Additional observations from a re-analysis of the deposited data

Results flagged for a closer look

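In 5 of 92 groups tested, a mouse lay apart from the rest of its group by Dixon's test at 95%, which chance would give in about 1 group in 20. For Igfbp2 the highest D3 mouse, mouse 35, stood at 3.96. For Akap5 the lowest vehicle mouse, mouse 2, stood at 6.19. For Ccn1 the lowest D2 mouse, mouse 30, stood at -1.18, for Emcn the lowest D2 mouse, mouse 26, at 2.79, and for Fibin the highest D2 mouse, mouse 29, at 2.55, all as log2 ratios of lung over reference.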

How the results depend on the processing

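Centring each array on its median in place of loess took the median of all tested probes at D1 and D2 to 0.17 and 0.12 on the log2 scale, and under it 0 genes were called at D3, 0 passed the adjusted p at D2, 0 at D3, and 0 were called for the trend. Calls over all tested probes fell as well, to 0.0387% at D1, 0.0581% at D2, 0.316% at D3 and 0.239% for the trend, and the shares past the adjusted p were the same 0.0581% at D2 and 0.316% at D3. Cav1 then gave -0.43 and Igfbp2 1.096 at D3. Over the 30 alternatives the adjusted p at D3 ran from 0.001 to 0.847 for Cav1 and from 0.00458 to 0.582 for Igfbp2. With slide as a block 3 genes passed the adjusted p at D1 and 4 at D3, and 2 were called for the trend, against 8.26%, 17.7% and 1.61% of all probes in that fit. The count past the adjusted p at D1 was 1 with processed signals, normexp, the deposited table, the red channel alone or mouse 23 in D1, each time Cav1. The trend count was 2 with the first array of mouse 35, and 2 with all probes of the members, which counts both Igfbp2 probes.

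Leaving out 1 mouse at a time gave 0 to 1 genes called at D2 and 1 to 2 each at D3 and for the trend. The count past the adjusted p was 0 to 1 for both D1 and D2 and 1 to 2 for D3. D0 mouse 3 and D3 mice 31 and 35 each lowered the D3 count to 1.

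Small differences that did not pass the test changed sign, and the cause was not tested. Under median centring D2 became 0.12 for Ager, 0.20 for Aqp5, 0.14 for Hopx, 0.22 for Pdpn, 0.011 for Akap5 and 0.16 for Clic5, D1 became 0.19 for Pdpn and 0.27 for Clic5, and D3 became 0.15 for Aqp5. In the red channel alone Aqp5 gave 0.0080 at D2 and 0.023 at D3, Pdpn 0.018 at D2, and Clic5 0.083 at D1 and 0.059 at D2. Pdpn at D2 gave 0.011 in the deposited table and 0.063 with mouse 23 in D1, and Clic5 at D1 gave 0.0022 with slide as a block. Leaving out 1 mouse at a time, Pdpn at D2 ran from -0.085 to 0.063 (above zero without D0 mouse 1 or 3 or D2 mouse 23), Clic5 at D1 from -0.15 to 0.036 (above zero without D1 mouse 22) and Aqp5 at D1 from -0.0037 to 0.078 (below zero without D1 mouse 24). The groups share no mouse numbers, so mice were matched by slide only, in the fit with slide as a block.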
